A study of Rattus norvegicus with 6 samples.

Results

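Ripk1, Ripk3, Mlkl, Casp1, Casp8, Gsdmd, Gsdme and Pycard are mediators of regulated cell death. They were examined in the renal cortex of rats given thiobis(6-tert-butyl-m-cresol) as its 4,4' isomer, a phenolic antioxidant abbreviated TBBC here. The 8 genes were chosen by their known role, and a gene was measured where a probe's transcript accession mapped to it. Of the 8 genes, 6 were measured, by 7 probes: Ripk1 by 2 probes, and Ripk3, Casp1, Casp8, Gsdme and Pycard by 1 probe each. No probe could be assigned to Mlkl or Gsdmd, so the final pore-forming steps of necroptosis and of classical pyroptosis were not analysed here. All 7 probes lay well above background on all 6 arrays, so none of the 6 genes passed the filter on dim probes through 1 group alone. They were fitted among 32956 transcripts, of which 12298 were named genes.

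The TBBC group held 3 male Sprague-Dawley (Crl:CD(SD)) rats that received TBBC at 300 mg/kg/day for 4 weeks. The vehicle group held 3 such rats that received corn oil over the same 4 weeks. All animals were 5 weeks old at purchase, and each rat's renal cortex RNA was labelled with Cy3 and hybridised to 1 Agilent array. The design text calls the replicates biological.

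Between 67.1% and 70.9% of 61537 probes lay well above background on each array, and no spot was saturated. All 12 defining markers of renal cortex (tubule segments and podocytes) were tested, and their values are given beside Gsdme. Of 8 adrenal, liver, pancreas and muscle markers, Cyp11b1, Cyp11b2, Star and Myh2 failed the filter on dim probes, and Cyp17a1, Alb, Apoa1 and Ins2 were tested. Alb, which encodes the liver protein albumin, varied widely, with log2 signals of -3.61, -2.97 and -6.44 in TBBC rats and 2.39, -3.46 and -0.13 in vehicle rats, and was highest in vehicle 1. The 3 vehicle arrays and TBBC 1 shared a slide and a scan date, and TBBC 2 and TBBC 3 shared another slide and another scan date. For 74.2% of transcripts the TBBC rats had the larger SD. TBBC 3 stood apart in its leukocyte markers, given below beside Casp1, Pycard and Casp8.

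Necroptosis is a lytic form of cell death in which the kinases RIPK1 and RIPK3 join through a shared interaction motif and RIPK3 phosphorylates MLKL, which then breaches the plasma membrane. Caspase-8 cleaves both kinases and holds this pathway in check. In pyroptosis, inflammasome sensors recruit the adaptor ASC, encoded by Pycard, which activates caspase-1, and caspase-1 cleaves gasdermin D into a membrane pore. Gasdermin E, encoded by Gsdme, is another member of the gasdermin family of pore-forming proteins. In kidney, RIPK3 and MLKL have been studied mainly in ischaemic and toxic tubular injury, whereas Casp1 and Pycard are abundant in macrophages and other leukocytes.

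Among the 6 measured genes, Ripk3 had the highest TBBC-over-vehicle difference and Gsdme the lowest, and the other 4 lay between them. Ripk3 was 2.03-fold higher and Gsdme 1.91-fold lower in the TBBC group. The differences of Ripk1, Casp1 and Pycard were within the spread between rats, and Casp8 was 1.30-fold higher with groups that barely separated. None of the 6 genes passed an adjusted p of 0.05 in either direction (limma, Benjamini-Hochberg over all transcripts), against 0.531% of the 32956 transcripts. At an unadjusted p under 0.05 there were 2 of 6, Ripk3 higher and Gsdme lower, where 20.0% of all transcripts lay under that p (9.55% higher and 10.4% lower). The groups did not overlap for 3 of 6 genes, Ripk3 and Casp8 higher and Gsdme lower, against 28.3% of all transcripts (13.1% higher and 15.2% lower). The median log2 fold change of the 6 genes was 0.03, and that of all transcripts was -0.02.

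**Figure D1:**
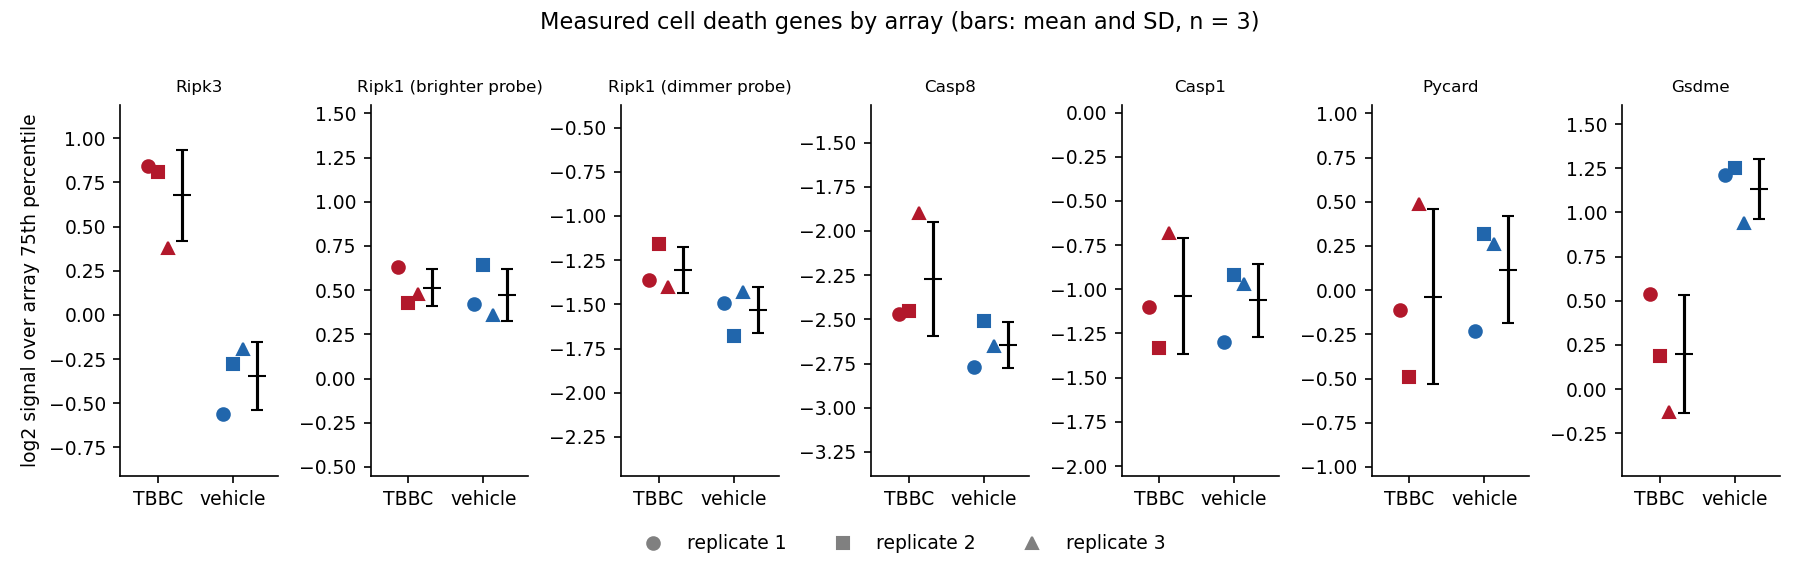
Log2 signal relative to the array's 75th percentile (y axis) of the 7 probes, for the 3 TBBC rats (left, red) and the 3 vehicle rats (right, blue), with mean and SD beside the points. Each panel spans the same number of log2 units. The TBBC points of Ripk3 lie above and those of Gsdme below all vehicle points, while Ripk1 (brighter probe), Casp1 and Pycard overlap.

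Ripk3 encodes the kinase on which necroptosis depends. Its log2 signal, relative to the array's 75th percentile, was 0.84, 0.81 and 0.38 in TBBC rats 1 to 3, against -0.56, -0.28 and -0.19 in vehicle rats 1 to 3. Every TBBC value lay above every vehicle value, with a gap of 0.57 between the lowest TBBC and the highest vehicle value. On the linear scale the signal was 1.792, 1.759 and 1.301 times the 75th percentile in TBBC rats, against 0.677, 0.826 and 0.877 times in vehicle rats. The gap between the groups exceeded the range within either group, which was 0.46 in TBBC and 0.37 in vehicle.

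The group means of Ripk3 were 0.68 ± 0.26 in TBBC and -0.34 ± 0.19 in vehicle rats (log2, SD, n = 3 each). The log2 fold change was 1.02 ± 0.17 (SE), with an unadjusted p of 0.000935 and an adjusted p of 0.0691 in limma. It ranked 445 of 32956 transcripts by p, and 1.35% of transcripts had a smaller p. Over 20 alternative ways of processing, the log2 fold change ran from 0.91 to 1.18 and the adjusted p (limma) from 0.0339 to 0.244. The threshold was passed in 2 of these alternatives, normexp background correction (adjusted p = 0.0378) and eBayes with trend and robust settings (adjusted p = 0.0339). On the slide that held both groups, with TBBC 1 as the lone TBBC array, the log2 fold change was 1.18 and the adjusted p 0.102 (limma). In that fit, for every gene, the spread comes from the vehicle arrays alone, and TBBC 1 is assumed to vary as they do.

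Gsdme encodes gasdermin E, a pore-forming protein of the gasdermin family. Its log2 signal was 0.54, 0.19 and -0.13 in TBBC rats 1 to 3, against 1.21, 1.25 and 0.94 in vehicle rats 1 to 3. All 3 TBBC rats lay below all 3 vehicle rats, with a gap of 0.39, and TBBC 3 was the lowest. The means were 0.20 ± 0.34 in TBBC and 1.13 ± 0.17 in vehicle rats (log2, SD, n = 3 each).

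The log2 fold change of Gsdme was -0.93 ± 0.20 (SE), with an unadjusted p of 0.00277 and an adjusted p of 0.0900 in limma. It ran from -1.10 to -0.59 over the 20 alternatives, with adjusted p-values (limma) from 0.0505 to 0.326. The value nearest to 0 came from fits in which the group difference rests on TBBC 1, the array on the vehicle slide. TBBC 1 was the TBBC rat closest to the vehicle mean: the log2 differences from it were -0.59 in TBBC 1, -0.94 in TBBC 2 and -1.26 in TBBC 3. The slide's part in this was not tested. In bulk cortex, fewer cells that express Gsdme and less of its RNA per cell cannot be told apart, and the same holds for each gene described here.

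Most renal cortex markers had a lower mean in TBBC rats. Of the 12 markers, 11 had a log2 fold change below 0, and the list median was -0.24, against -0.02 for all transcripts. The exception, Slc12a3, was at 0.26 at its brightest probe and at -0.25 and -0.41 at its other probes. None of the 12 passed the threshold (limma). At an unadjusted p under 0.05 there were 0 higher and 3 lower, against 9.55% and 10.4% of all transcripts. The 3 lower markers were Aqp1, Lrp2 and Umod. Aqp1, the water channel of the proximal tubule, was at -0.77, and Lrp2, the endocytic receptor megalin of that tubule, at -0.37. Umod, the thick limb protein uromodulin, was at -0.91. Of the 12, these 3 alone had groups that did not overlap, and 15.2% of all transcripts lay lower without overlap. In TBBC rats 1 to 3, Aqp1 was at 5.80, 6.35 and 5.98, Lrp2 at 6.24, 6.05 and 6.19, and Umod at 8.18, 6.81 and 7.47. Gsdme was lowest in TBBC 3, and these markers were lowest in TBBC 1 or TBBC 2. The summed linear level of the list was 1181.8, 1137.1 and 1187.0 in TBBC rats, against 1500.1, 1426.0 and 1507.3 in vehicle rats. Slc34a1, Umod and Slc22a6 weigh most in the vehicle sums, with the highest vehicle means of the list (8.45, 8.40 and 8.25, log2). In TBBC 2, Umod was at 6.81, whereas Slc34a1 was at 8.29 and Slc22a6 at 8.31. The part of tubular RNA in the Gsdme values was not tested.

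The promoter sequences of Ripk3 and Gsdme, whose groups stood farthest apart, and of Casp1 and Pycard, whose profiles over the arrays were the most alike (below), are shown so that their start sites can be compared. RefSeq windows of assembly GRCr8 were available for 5 of the 6 measured genes. Each window runs 5′ to 3′ on the gene's strand, from 250 bases before to 50 bases after an annotated start. Casp1 has 3 RefSeq transcripts and Gsdme 10, and their windows lie inside the annotated span of the gene. The matches below hold for the start shown only. Capitals mark matches, on either strand, to the motifs searched.

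Ripk3, chr15:33261976-33262275, strand -: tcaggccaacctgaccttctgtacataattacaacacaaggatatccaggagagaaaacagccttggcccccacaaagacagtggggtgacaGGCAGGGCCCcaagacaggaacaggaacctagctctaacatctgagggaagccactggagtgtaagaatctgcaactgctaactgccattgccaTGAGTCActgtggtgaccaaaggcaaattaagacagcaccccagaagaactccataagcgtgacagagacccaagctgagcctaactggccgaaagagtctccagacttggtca
Gsdme, chr4:80651562-80651861, strand -: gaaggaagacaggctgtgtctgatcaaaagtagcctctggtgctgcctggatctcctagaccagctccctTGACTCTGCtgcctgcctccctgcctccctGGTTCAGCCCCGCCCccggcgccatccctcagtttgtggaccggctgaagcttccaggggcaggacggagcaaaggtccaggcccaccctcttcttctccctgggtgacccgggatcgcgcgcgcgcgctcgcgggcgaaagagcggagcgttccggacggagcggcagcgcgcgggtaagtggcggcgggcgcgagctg
Casp1, chr8:10872580-10872879, strand +: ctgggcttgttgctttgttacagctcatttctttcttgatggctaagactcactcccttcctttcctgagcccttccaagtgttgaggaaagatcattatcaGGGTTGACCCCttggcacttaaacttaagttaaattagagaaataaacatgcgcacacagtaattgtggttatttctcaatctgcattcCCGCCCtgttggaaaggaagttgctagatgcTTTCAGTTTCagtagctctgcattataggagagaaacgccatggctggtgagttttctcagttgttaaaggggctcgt
Pycard, chr1:192033370-192033669, strand -: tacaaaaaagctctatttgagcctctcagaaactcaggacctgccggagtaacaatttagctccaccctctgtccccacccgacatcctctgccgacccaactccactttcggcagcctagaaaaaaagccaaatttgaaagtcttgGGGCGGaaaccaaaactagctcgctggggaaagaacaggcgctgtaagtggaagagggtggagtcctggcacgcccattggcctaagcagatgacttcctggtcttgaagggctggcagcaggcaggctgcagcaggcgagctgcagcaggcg

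The G and C content of the windows was 51.0% for Ripk3, 67.7% for Gsdme, 43.3% for Casp1 and 55.0% for Pycard. The motifs searched were the kappa-B core, the core of the interferon-stimulated response element, the gamma-activated site TTCNNNGAA, the antioxidant response element core TGACNNNGC, the AP-1 site TGANTCA, the GC box GGGCGG and the TATA box TATAAA. Ripk3 held an AP-1 match beginning 64 bases before the start, a motif found in 7.3% of 33469 windows of the same length, and a kappa-B match 158 bases before it, found in 47.3%. Gsdme held an antioxidant response element match 180 bases before the start, found in 12.1% of windows, and a kappa-B match overlapping a GC box (found in 33.1%). Casp1 held an interferon-stimulated response element match 28 bases before the start, found in 3.9% of windows, a pair of overlapping kappa-B matches and a GC box. Pycard held a GC box alone. These matches describe letters in the windows and not bound sites.

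Ripk1 encodes the kinase that links the TNF receptor to survival, apoptosis or necroptosis. Its brighter probe (A_42_P722994), which represents the gene in the fit, had log2 signals of 0.63, 0.43 and 0.48 in TBBC rats and 0.42, 0.64 and 0.36 in vehicle rats. The groups overlapped, and the log2 fold change was 0.04 ± 0.12 (SE; limma adjusted p = 0.890). Its direction turned without vehicle 3 or without TBBC 1 (-0.02 in both).

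The dimmer Ripk1 probe (A_44_P156830) had log2 signals of -1.36, -1.16 and -1.40 in TBBC rats and -1.49, -1.68 and -1.43 in vehicle rats. Here the groups did not overlap, by a margin of 0.03, and the log2 fold change was 0.23 ± 0.12 (SE; limma adjusted p = 0.365 over all probes). With the mean of both probes the log2 fold change was 0.13 (adjusted p = 0.477 in limma).

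Casp8 encodes the initiator caspase of death receptors, which restrains necroptosis. Its log2 signal was -2.47, -2.45 and -1.90 in TBBC rats 1 to 3, against -2.77, -2.51 and -2.65 in vehicle rats 1 to 3. TBBC 1 and 2 lay just above the highest vehicle rat, by a margin of 0.04 at the closest, and TBBC 3 stood well above both. The log2 fold change was 0.37 ± 0.18 (SE; limma adjusted p = 0.317), and without TBBC 3 it was 0.19 (adjusted p = 0.389). On the shared slide alone, with TBBC 1 as the lone TBBC array, it was 0.18.

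Casp1 encodes the protease that activates gasdermin D and interleukin-1 beta. Its log2 signal was -1.10, -1.33 and -0.68 in TBBC rats 1 to 3, against -1.30, -0.92 and -0.97 in vehicle rats 1 to 3. TBBC 3 was the highest and TBBC 2 the lowest of all 6 rats, so the TBBC group spanned the whole vehicle range. The log2 fold change was 0.02 ± 0.20 (SE; limma adjusted p = 0.963) and changed sign without TBBC 3 (-0.16, adjusted p = 0.599).

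Pycard encodes ASC, the adaptor between inflammasome sensors and caspase-1. Its log2 signal was -0.11, -0.49 and 0.49 in TBBC rats 1 to 3, against -0.23, 0.32 and 0.26 in vehicle rats 1 to 3. As for Casp1, TBBC 3 was the highest and TBBC 2 the lowest rat. The means were -0.03 ± 0.49 in TBBC and 0.11 ± 0.30 in vehicle rats (log2, SD, n = 3 each), and the log2 fold change was -0.15 ± 0.28 (SE; limma adjusted p = 0.814). It was -0.41 without TBBC 3 and 0.08 without TBBC 2.

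Most leukocyte markers were also highest in TBBC 3, the rat with the highest Casp1, Pycard and Casp8. Of 21 tested macrophage and myeloid markers, 18 were highest in TBBC 3, and so were 11 of 13 tested lymphocyte markers, where 19.0% of all transcripts were highest in that array. The summed linear level of the myeloid list was 143.5, 152.3 and 301.1 in TBBC rats 1 to 3, against 191.6, 186.4 and 203.2 in vehicle rats 1 to 3. Lyz2 and Cd74 carried 58.7% to 60.2% of that sum in TBBC rats and 65.0% to 73.4% in vehicle rats. Cd74 was the marker lower at an unadjusted p under 0.05, with log2 signals of 4.82, 4.61 and 5.58 in TBBC rats and 6.14, 5.75 and 5.68 in vehicle rats. The summed level of the lymphocyte list was 5.2, 4.7 and 8.9 in TBBC rats, against 5.2, 7.2 and 6.7 in vehicle rats.

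Ptprc, the pan-leukocyte marker CD45, had log2 signals of -0.37, -0.45 and 0.70 in TBBC rats 1 to 3, against -0.36, 0.11 and -0.02 in vehicle rats 1 to 3. Cd68, a lysosomal macrophage protein, had 1.11, 0.95 and 2.06 in TBBC rats, against 0.83, 1.33 and 1.35 in vehicle rats. Csf1r, the macrophage growth factor receptor, had -1.24, -1.60 and -0.29 in TBBC rats, against -1.18, -0.98 and -0.89 in vehicle rats. All 3 were highest in TBBC 3, and the T cell marker Cd3e was too.

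None of the tested myeloid or lymphocyte markers passed the threshold (limma; 1 myeloid marker higher and 1 lower at an unadjusted p under 0.05). Over all transcripts, 9.55% were higher and 10.4% lower at that p. Cd163, a marker of resident and scavenging macrophages, was above background on 1 TBBC array and on no vehicle array with each of its 3 probes. Cd163, Ccr2 and Cd5 failed the filter on dim probes, and no probe could be assigned to Ms4a1, Cd79a or Mpo. The part of leukocyte number in the Casp1, Pycard and Casp8 values was not tested.

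**Figure D2:**
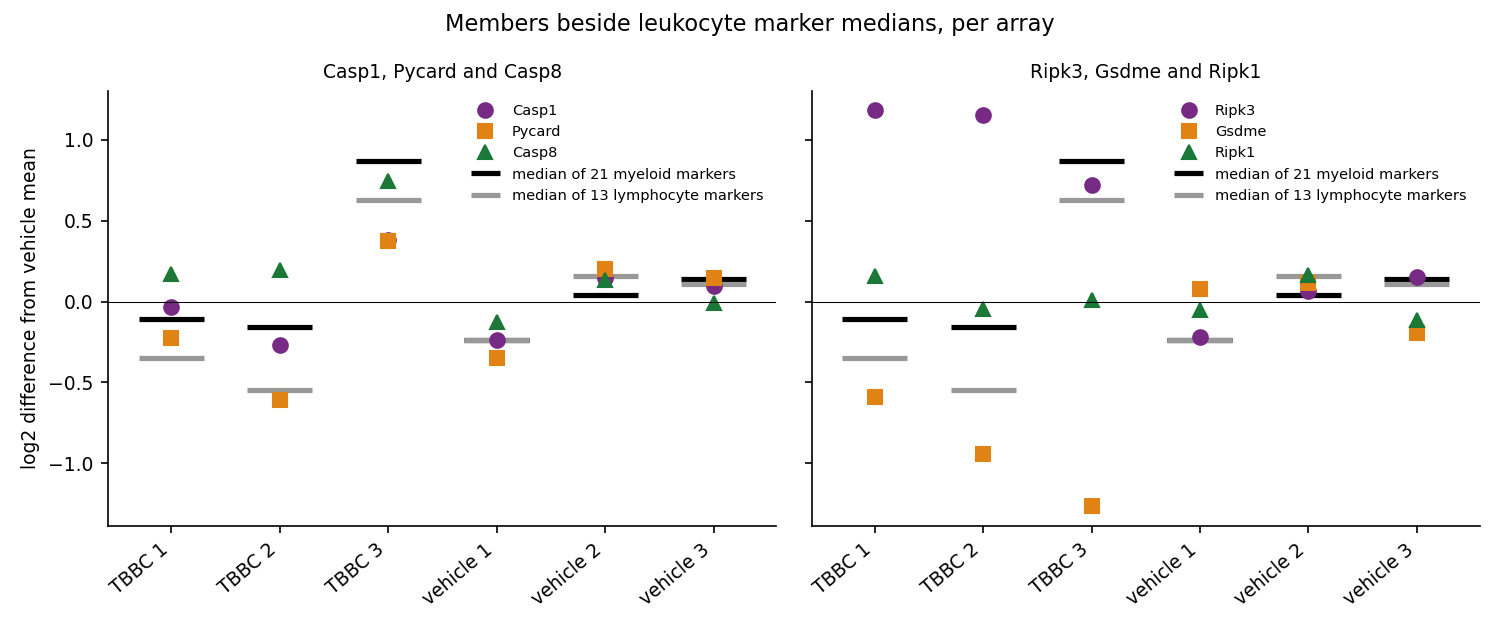
Log2 difference of each array from the vehicle mean (y axis) for 3 genes per panel (symbols), with the median of 21 myeloid markers (black bars) and 13 lymphocyte markers (grey bars), arrays on the x axis. Casp1, Pycard and Casp8 are highest in TBBC 3, where the marker medians are 0.87 and 0.63, whereas Ripk3 is at 1.18, 1.16 and 0.72 in TBBC 1 to 3.

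Ripk3 and Gsdme had a different order over the TBBC rats. Relative to the vehicle mean, Ripk3 was at 1.18, 1.16 and 0.72 and Gsdme at -0.59, -0.94 and -1.26 in TBBC rats 1 to 3 (log2). The medians of the myeloid markers in the same rats were -0.11, -0.16 and 0.87. In TBBC 3, where the myeloid median was highest, Ripk3 was lowest within the TBBC group and still 0.72 above the vehicle mean. The root mean square difference from the Ptprc profile over the 6 arrays was 0.20 for Casp1 and Pycard, 0.31 for Casp8, 0.41 for Ripk1, 0.86 for Ripk3 and 0.90 for Gsdme (log2, each gene relative to its vehicle mean). Of the named genes, 1.1% lay nearer to Ptprc than Casp1, 1.2% than Pycard, 5.9% than Casp8, 26.5% than Ripk1, 93.3% than Ripk3 and 94.0% than Gsdme. This distance counts any offset from the vehicle mean. Genes with log2 fold changes of 1.02 (Ripk3) and -0.93 (Gsdme) therefore lie far from Ptprc (0.05), whatever their order over the rats. The part of leukocyte number in the Ripk3 and Gsdme values was not tested. Without TBBC 3 the log2 fold change of Ripk3 was 1.17 (limma adjusted p = 0.0514) and that of Gsdme -0.77 (adjusted p = 0.0991).

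Among themselves, Casp1 and Pycard had the most alike profiles, with a root mean square difference of 0.16 on the log2 scale. Ripk3 and Gsdme had the least alike, at 1.40. Among 12297 other named genes, the nearest profiles to Casp1 were Or2h2 at 0.03, an olfactory receptor gene, and Fcgr1a at 0.04, the high-affinity IgG receptor of macrophages. Those nearest to Pycard were Tnnt3 at 0.07, a muscle troponin, and the chemokine gene Ccl5 at 0.08. Fcgr1a and Ccl5 are on the marker lists used here.

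The nearest genes to Ripk3 were Ogg1 and Rad18, both DNA repair genes, at 0.13 and 0.14 and with log2 fold changes of 0.91 and 0.98. Those nearest to Gsdme were Acsf2, a mitochondrial acyl-CoA synthetase, at 0.09, and Foxi3 at 0.10. Atad2 and Lrrc51 lay nearest to Casp8 at 0.06 and 0.07, and Golga2 and Mtbp nearest to Ripk1 at 0.03 and 0.04. These likenesses describe 6 arrays only.

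The list of necroptosis partners and TNF signalling genes gave no call, with 0 of 29 tested genes past the threshold (limma). At an unadjusted p under 0.05 there were 5 higher and 1 lower, against 9.55% and 10.4% of all transcripts. The list median of the log2 fold change was 0.03, and the groups did not overlap for 6 higher and 4 lower of the 29 genes, against 13.1% and 15.2% of all transcripts. Fas, the death receptor, had log2 signals of -0.77, -1.54 and -1.66 in TBBC rats and -2.66, -2.45 and -2.72 in vehicle rats. All TBBC rats lay above all vehicle rats, and the log2 fold change was 1.29 ± 0.25 (SE; limma adjusted p = 0.0799), with 0.89 for another probe of the gene.

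Tnfrsf12a, the receptor of the cytokine TWEAK, had log2 signals of 3.07, 4.16 and 1.95 in TBBC rats, against 0.45, 0.45 and 1.33 in vehicle rats. The groups did not overlap, with TBBC 3 lowest of the TBBC rats and vehicle 3 highest of the vehicle rats. Its log2 fold change was 2.31 ± 0.57 (SE; limma adjusted p = 0.113), and its other tested probe gave 2.35. Tnf, the ligand that can start necroptosis, had -1.22, -1.33 and -1.49 in TBBC rats, against -1.98, -1.70 and -1.90 in vehicle rats, a log2 fold change of 0.52 ± 0.13 (SE; limma adjusted p = 0.117). Its other probe was above background on no array. Mapkapk2, a kinase that phosphorylates RIPK1, was at -0.35 ± 0.10 (log2 fold change, SE; limma adjusted p = 0.146).

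**Figure D3:**
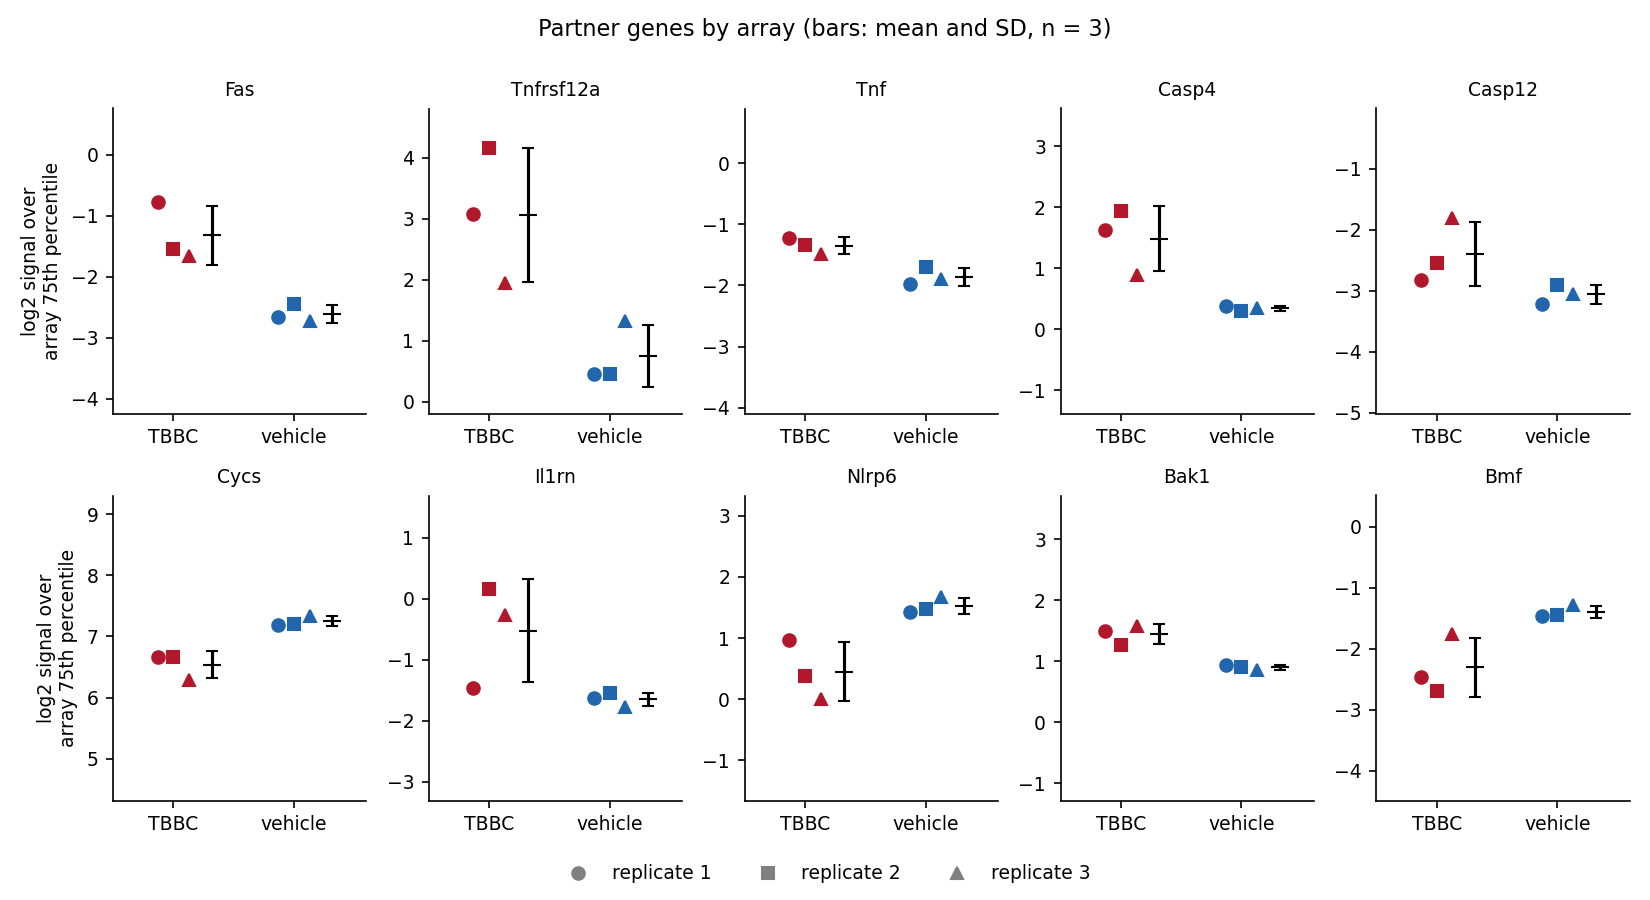
Log2 signal relative to the array's 75th percentile (y axis) of 10 partner genes in the 3 TBBC rats (left, red) and 3 vehicle rats (right, blue), with mean and SD; all panels span the same number of log2 units. The groups of these genes, chosen for small p, do not overlap in any panel. Cycs, Nlrp6 and Bmf are lower in TBBC rats and the other genes higher. Il1rn in TBBC 1 lies close to the vehicle rats (-1.47 against -1.55 in vehicle 2).

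Of 27 listed inflammasome and pyroptosis partners, 20 were tested and 0 passed (limma). At an unadjusted p under 0.05, 3 were higher and 1 lower, against 9.55% and 10.4% of all transcripts. The median log2 fold change was 0.01, with 10 genes above and 10 below 0. Casp4 is the rat counterpart of mouse caspase-11, which senses cytosolic lipopolysaccharide and cleaves gasdermin D. Casp4 had log2 signals of 1.62, 1.94 and 0.89 in TBBC rats and 0.38, 0.29 and 0.35 in vehicle rats. All TBBC rats lay above the vehicle rats, and the log2 fold change was 1.14 ± 0.26 (SE; limma adjusted p = 0.104). Without TBBC 3, the TBBC rat nearest to vehicle, it was 1.44 and passed (adjusted p = 0.0345). TBBC 3, where Casp4 was lowest among the TBBC rats, was the rat with the highest Casp1.

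Nlrp6, an inflammasome sensor known mainly from intestinal epithelium, had log2 signals of 0.96, 0.38 and 0.00 in TBBC rats, against 1.43, 1.48 and 1.67 in vehicle rats. The order of the TBBC rats was that of Gsdme, with TBBC 3 lowest. Its log2 fold change was -1.09 ± 0.25 (SE; limma adjusted p = 0.103), -1.19 at its other probe, and it passed without TBBC 1 (-1.34, adjusted p = 0.0498). Il1rn, the interleukin-1 receptor antagonist, was at 1.13 ± 0.40 and passed without TBBC 1 (adjusted p = 0.0401 in limma), and the transcription factor gene Irf1 was at 0.66 ± 0.24 (log2 fold changes, SE; limma adjusted p = 0.198 for both on all arrays). On the shared slide alone Nlrp6 was at -0.57 and Il1rn at 0.19.

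The other caspases gave 0 calls among 7 tested genes (limma; 3 higher and 0 lower at an unadjusted p under 0.05). Over all transcripts, 9.55% were higher at that p. At the brightest probe of each gene, the 7 log2 fold changes lay between 0.01 and 1.14, with a median of 0.18. The highest is that of Casp4, which is counted among the inflammasome and pyroptosis partners too, and the next is Casp12 at 0.67. For Casp9, the initiator caspase of the apoptosome, the direction depended on the probe, with 0.05 at the brightest and -0.05 and -0.04 at the other probes. Casp12, linked to endoplasmic reticulum stress in rodents, had log2 signals of -2.83, -2.54 and -1.81 in TBBC rats, against -3.22, -2.91 and -3.05 in vehicle rats. The groups did not overlap, and TBBC 3, where the leukocyte markers were highest, was the highest rat. Its log2 fold change was 0.67 ± 0.27 (SE; limma adjusted p = 0.242), and on the shared slide alone it was 0.23.

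Among BCL2 family, apoptosome and IAP genes, 0 of 24 tested genes passed (limma), and the median log2 fold change was 0.01. There were 2 higher and 4 lower at an unadjusted p under 0.05, against 9.55% and 10.4% of all transcripts. Bak1, which encodes a pore-forming protein of the outer mitochondrial membrane, had log2 signals of 1.49, 1.27 and 1.58 in TBBC rats, against 0.94, 0.91 and 0.85 in vehicle rats. All TBBC rats were higher, and the log2 fold change was 0.55 ± 0.12 (SE; limma adjusted p = 0.0937). Cycs, which encodes cytochrome c, the apoptosome trigger and respiratory electron carrier, was at -0.71 ± 0.14 (adjusted p = 0.0856 in limma), and 4 other probes gave -0.78 to -0.56.

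Bmf, a BH3-only gene, was at -0.91 ± 0.25 (log2 fold change, SE; limma adjusted p = 0.131), with -2.46, -2.69 and -1.76 in TBBC rats and -1.46, -1.44 and -1.29 in vehicle rats. TBBC 3 lay nearest to the vehicle rats, and without it Bmf was at -1.18 and passed (adjusted p = 0.0420 in limma). Dffb, which encodes a caspase-activated nuclease, was at -0.40 ± 0.11 at its brighter probe and at 0.16 at another, so its direction depends on the probe.

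**Figure D4:**
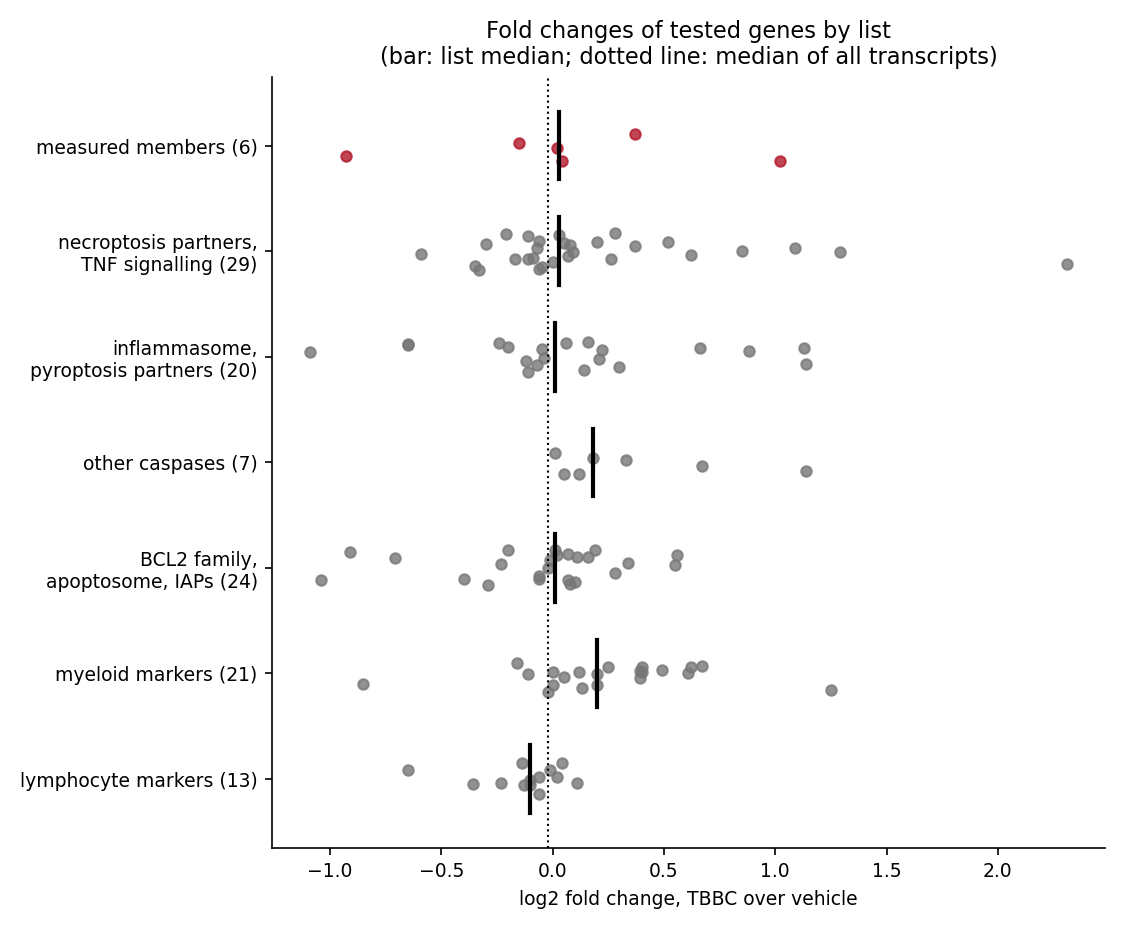
Log2 fold change, TBBC over vehicle (x axis), of each tested gene (points) in 7 lists, with list medians (bars) and the median of all transcripts, -0.02 (dotted line). The 6 measured members run from -0.93 (Gsdme) to 1.02 (Ripk3) around a median of 0.03, and the 7 other caspases lie between 0.01 and 1.14 at their brightest probes. Casp4, at 1.14, is plotted both there and among the inflammasome and pyroptosis partners.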

How the data were processed

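Renal cortex of 3 TBBC and 3 vehicle rats was profiled on 1-colour arrays. The processed spot intensity was taken from the deposited scanner output of Agilent Feature Extraction, version 10.7.1.1 per the file headers; the submitters' processing notes give 10.7. The deposited value table holds a linear ratio. By comparison with the scanner output, this is the processed signal over a number close to the array's 75th percentile, uncentred over genes (column medians 0.107 to 0.114). It served as an alternative. Scanner output held no mean signal column, so normexp (offset 50) used median signals and median backgrounds. The number of arrays limits the precision.

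Control spots (1439 of 62976) and outlier spots were left out. Accessions, without versions, were matched to RefSeq genes of GRCr8, which named 28206 of 61537 probes. The array design's build is rn4, so gene coordinates are omitted; promoter windows carry those of GRCr8. The main values are log2 of the signal over its array's 75th percentile. Testing required signal well above background on all unflagged arrays in 1 group or both (41992 probes), and the brightest such probe stood for its gene. Groups were compared with limma 3.58.1 (lmFit, eBayes, two-sided; R 4.3.3), with Benjamini-Hochberg adjustment over 32956 transcripts and a threshold of 0.05. The fit was tested on simulated data with the same spread in both groups and no slide effect. In the real data the TBBC rats had the larger SD for 74.2% of transcripts, which the simulation does not cover.

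The genes named are the 8 genes themselves, the 4 genes of smallest p in each partner list and the 2 nearest profiles per gene. Ptprc, Cd68, Csf1r, Cd3e and Ms4a1 are named too, as are the 8 markers of neighbouring tissues. Other markers are named where they could not be tested. Alb, Aqp1, Lrp2, Umod, Slc34a1, Slc22a6, Slc12a3, Lyz2, Cd74 and Casp9 were named after their values were seen. Some genes that this rule names are not reported here. The genes and lists were chosen with earlier results of these data known. Alternatives covered scaling, background correction, filters, probe choice, variance model, slide (statmod 1.5.0), replicate number and arrays left out.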

Additional observations from a re-analysis of the deposited data

How the results depend on the processing

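Each of the 6 measured genes was refitted under 20 alternatives. Ripk3 and Casp8 stayed higher and Gsdme lower in TBBC under all 20. The groups of these genes do not overlap, so leaving out an array or resting on TBBC 1 could not turn their direction. Each has 1 probe, so several filter, probe and variance alternatives returned the main log2 fold change (1.02, 0.37 and -0.93). Their constant direction is therefore in large part fixed by the design of the alternatives. The count of measured genes past the threshold was 0, and it became 1 (Ripk3) with normexp background correction and with eBayes trend and robust settings; it was 0 in the other 18. The direction of Ripk1 turned without vehicle 3 and without TBBC 1 (-0.02 in both). That of Casp1 turned with slide as a fixed term (-0.04), on the shared slide alone (-0.04), without vehicle 1 (-0.09) and without TBBC 3 (-0.16), and that of Pycard without TBBC 2 (0.08); none of these passed, and the cause was not tested. With 1 array left out, Ripk1 ran from -0.02 to 0.12, Casp1 from -0.16 to 0.17 and Pycard from -0.41 to 0.08. Of the partner genes, Cycs passed with normexp (limma adjusted p = 0.0274) and with trend and robust settings (0.0365), and Fas with trend and robust settings (0.0449).

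Over all transcripts 175 passed (84 higher, 91 lower). The count was 653 with normexp, 52 with no filter on dim probes (48976 transcripts tested), 333 with every probe on its own (41992 tests), 1087 with trend and robust settings, 48 with slide as a fixed term (43 higher, 5 lower) and 64 on the shared slide alone (59 higher, 5 lower). In both slide fits the difference rests on TBBC 1. With the replicate number as a replicate block the count was 0 (limma; 5366 at an unadjusted p under 0.05), and Ripk3 and Gsdme had adjusted p-values of 0.204 and 0.170. The labels give the numbers no shared source. Deviations of same-numbered samples correlated at -0.095, 0.033 and -0.074 (Pearson r over transcripts), and no TBBC sample correlated best with its own number. With 1 array left out the count ran from 6 to 263: it was 11, 6 and 18 without vehicle 1, 2 and 3, and 263, 57 and 258 without TBBC 1, 2 and 3; the measured genes past the threshold were 0 each time. The cause of these shifts was not tested.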
